A study of Mus musculus with 24 samples.

Results

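The nuclear genes of the mitochondrial respiratory chain were followed in the spleen of irradiated mice. The set held all 88 symbols that begin with Nduf, Uqcr, Cox4 to Cox8 or Atp5, out of 21671 genes in the tables. By symbol, 45 belonged to complex I, 8 to complex III, 18 to complex IV and 17 to complex V. By textbook role, 18 were core subunits, 52 were accessory subunits, 8 were isoforms of restricted tissue use and 10 were assembly or coupling factors, of which 7 served complex I. Some symbols carry an older placement: the Ndufa4 protein is now counted in complex IV, and Atp5sl has been assigned to the assembly of complex I.

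RNA-seq was made from C57/Bl6 mice aged 8 weeks, either Trp53+/+ or Trp53-/-, which lack the tumour suppressor p53. Mice received 7 Gy of whole-body ionizing radiation (IR) or mock treatment, and cells were taken 4 h after IR. Splenic B cells were the fraction held by magnetic beads against B220, and non-B cells were the rest of the organ, rich in T cells. Each of the 8 groups of cell type, genotype and treatment held 4 samples (Trp53+/+) or 2 samples (Trp53-/-), 24 in all. By the study's methods the samples of a condition came from separate mice, 4 Trp53+/+ and 2 Trp53-/-. The labels do not say which B and non-B samples came from the same mouse.

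The respiratory chain passes electrons from NADH through complex I, ubiquinone, complex III and cytochrome c to oxygen at complex IV. The proton gradient built on the way drives ATP synthesis by complex V. Most subunits are encoded in the nucleus and a small remainder in mitochondrial DNA, and assembly factors put the parts together. Resting lymphocytes rely largely on this route for ATP, and activation of B and T cells calls for more of it. The nuclear genes share transcription factors such as NRF1, GABP (an ETS factor) and YY1. Of the p53 targets known to act on the chain, Sco2 has no row in the tables used here, and neither have the mitochondrially encoded subunits.

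Values were reads scaled to exon length and to the exon-mapped reads of the library (RPKM), a level per length, so genes can be set side by side. Fold changes were on the scale of log2(RPKM + 0.5), with standard errors (SE), and a gene was called at an adjusted p under 0.05 by limma with Benjamini-Hochberg adjustment over all genes tested. Of the 88 genes, 86 passed the filter of RPKM above 1 in at least 1 Trp53+/+ B cell sample, and 84 did so in non-B cells. The testis isoforms Cox7b2 and Cox8c passed in neither. Cox4i2 and Ndufa4l2 passed in B cells only, Cox4i2 through 1.06 RPKM in irradiated Trp53+/+ replicate 2. Ndufa4l2, not tested in non-B cells, was 0.113 and 0.481 RPKM in mock and 1.99 and 1.13 in irradiated Trp53-/- non-B samples.

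The genotype labels were checked first. Trp53 was at 46.2 ± 1.31 RPKM (SD, n = 4) in mock Trp53+/+ B cells and at 21.6 and 21.7 in both mock Trp53-/- B samples, so its row keeps signal in the knockout. The classical p53 target Cdkn1a separated the genotypes fully: 82.3 to 97.8 RPKM in irradiated Trp53+/+ B cells and 69.6 to 88.3 in their non-B counterparts, against at most 2.63 in any irradiated Trp53-/- sample. Summed over 8 B cell markers, the level was 956.7 to 1109.4 RPKM in mock Trp53+/+ B cells and 327.4 to 528.7 in their non-B counterparts, where B cell transcripts therefore remained. Summed over 8 T cell markers, it was 64.6 to 73.9 and 389.9 to 561.6. In such bulk samples fewer cells of a type and less RNA per cell cannot be told apart.

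Libraries were not equal. Estimated depth ran from 4.7 to 11.01 M exon reads, with the irradiated Trp53+/+ B libraries at 4.7 to 7.68 and their mock counterparts at 7.53 to 10.17. Of 1434 olfactory and vomeronasal receptor genes, known from sensory neurons, 5.3 to 9.21% had a value above 0 in mock samples. Irradiated Trp53+/+ samples reached 47.21% in B cells (replicate 2, with replicate 1 at 36.68%) and 51.32% in non-B cells (replicate 3, with replicate 4 at 35.77% and replicate 1 at 24.62%). RPKM values also had a ceiling, since 1 read was kept of each set of duplicates. It was taken to be 2 reads a base at the estimated depth, which was assumed and not tested. On that basis members filled at most 54.8% of the ceiling (Atp5b), with medians of 7.49 to 19.6% by sample.

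In unstressed Trp53+/+ B cells the chain was expressed well above the typical gene. The median over its core subunits was 46.8 RPKM and over its accessory subunits 34.9, beside 14.2 over all 13821 genes tested. Among structural subunits the level rose in the order of the complexes, with medians of 28.7 RPKM for complex I (37 genes), 43.6 for complex III (8), 49.3 for complex IV (10) and 54.1 for complex V (15), and with wide overlap: complex I ran from 7.62 to 59.0 RPKM. The highest member was Atp5b, the catalytic beta subunit of complex V, at 101.2 RPKM, followed by Cox7a2l, a factor of supercomplex assembly, at 92.6. Ndufb10 led complex I at 59.0 and Uqcrh led complex III at 71.7. Assembly factors were lower, with a median of 10.1 RPKM, and Ndufaf6 at 5.02 was the lowest of those for complex I. The tissue isoforms ranged widely: 14.1 RPKM for the muscle isoform Cox6a2, 7.35 for Cox7a1, 2.81 for Cox8b, 1.84 for the testis isoform Cox6b2, 0.714 for Ndufa4l2 and 0.298 for Cox4i2. Their general counterparts were far higher, as with Cox6b1 at 58.1 and Cox4i1 at 84.7. Cox7b2 and Cox8c were listed at 0 in all mock samples. After IR Cox7b2 was above 0 only in Trp53+/+ B replicates 1 and 2, at 0.596 and 0.767 RPKM. Cox8c was above 0 only in irradiated Trp53+/+ B replicate 1 (0.68) and non-B replicate 3 (0.48). These libraries were among those with the most receptor genes.

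The promoters of 73 members were found in RefSeq (GRCm38.p6), as windows of 300 bases from 250 before to 50 after a gene's start. The NRF1 core CGCATGCG stood on either strand in 15.1% of the members, against 2.77% of 17492 protein-coding genes. The YY1 core AAGATGGC stood in 15.1% against 3.57%, and the ETS core CCGGAAG in 20.5% against 12.9%. The p53 half-site, a motif of 10 letters, stood in 5.48% against 8.54%. By windows, all 32851 promoters held these motifs in 1.87%, 2.75%, 8.86% and 8.36%, and the members' 79 windows in 13.9%, 15.2%, 19.0% and 5.06%. Neither background was limited to genes expressed in these cells, so the part of expression in these differences was not tested. No motif lies within another. Promoters of 4 members are shown for the results they carry: Cox6b2 had the largest change of all, Cox6b1 is its general counterpart, and Ndufaf4 and Atp5j differed between the genotypes. Every match is in capitals. Ndufaf4 (chr4:24897833-24898132, plus strand) encodes an assembly factor of complex I and Atp5j (chr16:84834927-84835226, minus strand) a stalk subunit of complex V, shown at the second of its RefSeq starts. The window of the other start of Atp5j, not shown, holds the p53 half-site, as do windows of Cox8a, Ndufb2 and Ndufs4. Cox6b1 (chr7:30626065-30626364, minus strand) and Cox6b2 (chr7:4753045-4753344, minus strand) are the general and the testis isoform of the same complex IV subunit.
Ndufaf4: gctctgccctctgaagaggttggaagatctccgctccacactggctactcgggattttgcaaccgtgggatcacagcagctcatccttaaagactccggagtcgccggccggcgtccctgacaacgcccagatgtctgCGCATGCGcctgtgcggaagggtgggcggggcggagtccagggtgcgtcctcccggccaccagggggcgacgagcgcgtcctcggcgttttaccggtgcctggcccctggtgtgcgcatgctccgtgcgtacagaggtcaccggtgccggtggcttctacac
Atp5j: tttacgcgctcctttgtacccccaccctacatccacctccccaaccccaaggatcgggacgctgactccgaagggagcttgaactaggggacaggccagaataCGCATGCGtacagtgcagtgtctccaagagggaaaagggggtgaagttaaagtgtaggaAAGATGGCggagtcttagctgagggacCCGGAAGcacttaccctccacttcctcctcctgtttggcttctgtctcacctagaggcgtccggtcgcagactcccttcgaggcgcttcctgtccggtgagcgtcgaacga
Cox6b1: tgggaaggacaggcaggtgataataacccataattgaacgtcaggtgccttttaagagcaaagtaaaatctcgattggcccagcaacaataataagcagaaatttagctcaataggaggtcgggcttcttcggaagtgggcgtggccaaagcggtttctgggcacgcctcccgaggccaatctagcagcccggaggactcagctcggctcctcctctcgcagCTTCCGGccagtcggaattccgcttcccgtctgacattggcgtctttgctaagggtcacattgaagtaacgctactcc
Cox6b2: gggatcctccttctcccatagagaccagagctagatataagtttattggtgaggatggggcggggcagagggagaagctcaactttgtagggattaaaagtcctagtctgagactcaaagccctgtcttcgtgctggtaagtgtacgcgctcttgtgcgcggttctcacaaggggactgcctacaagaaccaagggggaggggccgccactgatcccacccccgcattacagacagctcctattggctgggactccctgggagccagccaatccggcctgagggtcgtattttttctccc
The capitals mark the NRF1 core in Ndufaf4, the NRF1, YY1 and ETS cores in that order in Atp5j, and the ETS core, on the other strand, in Cox6b1. None of the 4 motifs was in the Cox6b2 window, which says only that these letters are not in it. A match is a description of the sequence, not a bound site. Among the 33 members that rose in irradiated Trp53-/- B cells, 27 had a promoter, and the NRF1 core stood in 14.8% of these, beside 15.2% of the 46 other members. For the ETS core the shares were 25.9% and 17.4%, for the YY1 core 11.1% and 17.4%, and for the p53 half-site 3.70% and 6.52%.

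The first comparison asked how the resting cell types differ. In mock Trp53+/+ mice more members were higher in B cells than in non-B cells. Of 86 members tested, 19 were higher in B cells (22.1%, where 17.7% of all genes were) and 2 were higher in non-B cells (2.33%, where 23.3% of all genes were). The median log2 difference was 0.14, beside 0.00 over all genes. Complex IV gave 7 of its 16 tested members and complex V 6 of 17, while complex I gave 4 of 45. Except in a few members the steps were small: only 5 of the 21 called exceeded 0.58 on the log2 scale.

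Atp5sl was at 43.5 to 47.8 RPKM in the 4 B samples and at 21.9 to 29.3 in the 4 non-B samples. The groups stood apart, with a log2 difference of 0.83 (SE 0.10, adjusted p = 5.7e-06). Atp5e, the small epsilon subunit of complex V, was 47.1 to 60.4 RPKM in the B samples and 24.9 to 42.1 in the non-B samples (log2 difference 0.74, SE 0.14, adjusted p = 0.00049). Structural subunits of the membrane complexes followed with smaller steps: Uqcrh, the hinge protein of complex III, and Cox6c and Ndufa6, accessory subunits of complexes IV and I, each had a log2 difference of 0.46. Cox6c shares 250 exon bases with Vps13b on the other strand, and how reads in the shared bases were counted was not tested. Cox6a2 was higher in B cells by 0.81 (SE 0.26, adjusted p = 0.021), a call lost without B replicate 3 or 4 or non-B replicate 1. Its 3' end overlaps that of the neighbouring integrin gene Itgad by 66 bases on the opposite strand (NCBIM37), the kit does not mark strand, and Itgad differed the same way by 1.36. The part of Itgad reads in the Cox6a2 value was not tested.

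The opposite direction was taken by 2 members. Uqcrq, a small subunit of complex III, was 16.9 to 23.4 RPKM in the B samples and 25.4 to 34.9 in the non-B samples, without overlap (log2 difference -0.59, SE 0.21, adjusted p = 0.033), although the call was lost without B replicate 2, 3 or 4 or non-B replicate 1, 2 or 3. Cox6b2 was 1.41 to 2.09 RPKM in the 4 B samples. In non-B cells it was 21.2, 19.1, 7.17 and 5.86, so that the samples fell into a high and a low pair, both above every B sample (log2 difference -2.37, SE 0.32, adjusted p = 1.7e-05).

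**Figure D1:**
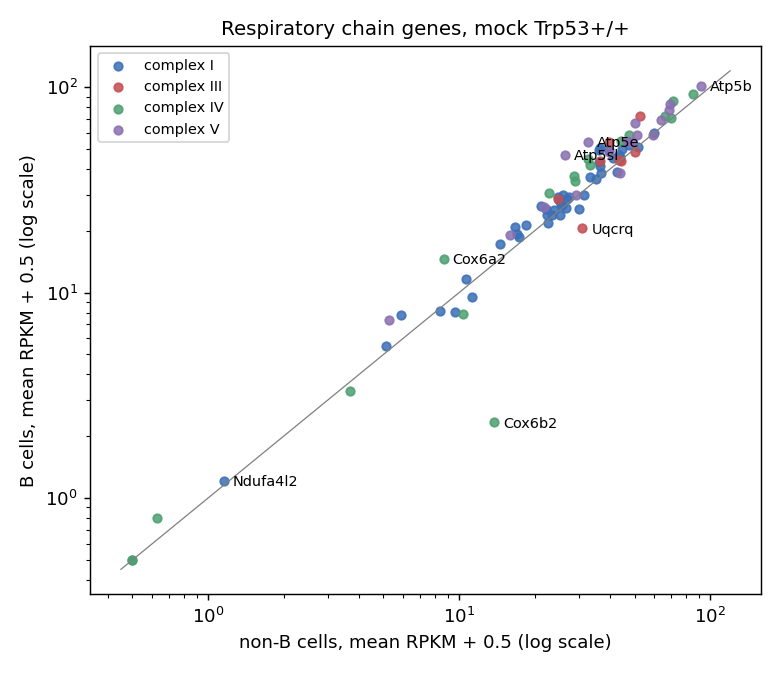
Mean RPKM + 0.5 of the 88 members in mock Trp53+/+ non-B cells (x axis, log scale) and B cells (y axis, log scale), 4 samples each, coloured by complex, with the line of equal levels. Most points lie close to the line or slightly above it, while Cox6b2, at a mean of 1.84 RPKM in B and 13.3 in non-B cells, lies far below it.

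The absence of p53 alone left the resting chain without a call. In mock samples 0 of 86 members differed between Trp53-/- and Trp53+/+ B cells by limma, and 4 had an unadjusted p under 0.05. In non-B cells 0 of 84 were called and 9 had an unadjusted p under 0.05. Of all genes tested, 589 of 13821 in B cells and 705 of 14018 in non-B cells had an unadjusted p under 0.05. Over all genes 0.0506% and 0.0428% were called, so the test called few genes of any kind. The median log2 differences of the members were -0.06 and 0.11.

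Irradiated Trp53+/+ B cells showed a mixed change. Of 86 members, 20 rose (23.3%, beside 25.4% of all genes) and 7 fell (8.14%, beside 25.8% of all genes). The share that rose was thus close to the background and the share that fell was below it. The median log2 fold change was 0.06, beside 0.01 over all genes. With a log2 fold change above 0.58 required as well, 5 rose and 2 fell, where 24.7% of all genes passed in either direction.

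The subunits that carry out catalysis in complex I stayed without a call: 0 of 7 core subunits passed, with fold changes between -0.05 and 0.07 and 0 with an unadjusted p under 0.05. Accessory subunits gave 9 rises and 1 fall among 30, and complex I assembly factors 4 rises and 1 fall among 7. Complex III gave 3 rises among 8. Complexes IV and V were split, with 2 rises and 3 falls among 16 and 2 rises and 2 falls among 17.

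The change of Cox6b2 exceeded that of all other members. In the 4 mock B samples it was 2.09, 1.41, 1.95 and 1.9 RPKM, and in the 4 irradiated samples 37.5, 30.0, 56.7 and 54.6. The lowest irradiated sample was thus far above the highest mock sample, and the log2 fold change was 4.23 (SE 0.25, adjusted p = 5.1e-08). From 1.84 ± 0.295 RPKM (SD, n = 4) the mean went to 44.7 ± 13.1 (SD, n = 4). Cox6b1 was 43.7 to 69.8 RPKM in mock and 52.8 to 90.7 in irradiated samples, and its fold change of 0.23 did not pass. The Cox6b2 gene (chr7:4703396-4704696, minus strand, NCBIM37) shares no exon with another gene. Its closest neighbour Fam71e2, 132 bases away, was at 0 RPKM in the 4 mock and at 0.19 to 0.921 in the 4 irradiated Trp53+/+ B samples. Suv420h2, 4280 bases away, stayed between 21.6 and 28.0. A link between Fam71e2 and the change of Cox6b2 was not tested.

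Assembly of complex I supplied the next gene. Ndufaf2, a chaperone for a late step, was 8.29, 8.32, 5.39 and 8.27 RPKM in mock and 13.6, 14.4, 14.3 and 15.0 in irradiated samples (log2 fold change 0.89, SE 0.12, adjusted p = 6.9e-05). Its start lies 106 bases from that of Ercc8 on the other strand, which rose by 0.50. Ndufb6, an accessory subunit, went from 19.7 to 26.7 RPKM to between 33.9 and 51.2 (log2 fold change 0.81, SE 0.13). It shares 257 exon bases with 2010003O02Rik on the other strand, so its reads cannot be told apart from those there. Uqcrq went from 16.9 to 23.4 RPKM to 43.1, 42.1, 22.8 and 30.0 (log2 fold change 0.73, SE 0.17). Here the groups overlapped and the highest values were those of irradiated replicates 1 and 2, which had the most receptor genes. With the mean of the receptor genes as a covariate the fold change of Uqcrq was 0.39 and the call was lost.

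Ndufa12, an accessory subunit that enters complex I late, was 29.3 to 44.4 RPKM in mock and 48.5 to 59.7 in irradiated samples (log2 fold change 0.62, SE 0.12). Ndufab1, the acyl carrier protein, which serves complex I and mitochondrial fatty acid synthesis, went from 19.8 to 22.4 RPKM to between 30.4 and 33.7 (log2 fold change 0.58, SE 0.07, adjusted p = 3.9e-05). Both pairs of groups stood apart. The rises among core subunits were those of Uqcrc1, a core protein of complex III (0.26), Atp5d, the delta subunit of complex V (0.31), and Atp5g1, which encodes the ring subunit c (0.46).

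Among the 7 members that fell, Cox6a2 had the widest step, from 10.8, 13.4, 16.1 and 16.3 RPKM to 9.08, 6.95, 5.05 and 5.28 (log2 fold change -1.06, SE 0.19, adjusted p = 0.00052). Itgad, which overlaps it, fell by 0.59. Ndufaf3, an early assembly factor of complex I, was 23.5 to 26.7 RPKM in mock and 14.2, 10.7, 18.7 and 19.9 in irradiated samples (log2 fold change -0.67, SE 0.15). Its lowest values were those of irradiated replicates 1 and 2. Atp5sl went from 43.5 to 47.8 RPKM to between 29.3 and 38.8 (log2 fold change -0.45, SE 0.09). Cox7a2 fell by 0.32, Ndufb11, which shares 117 exon bases with Rbm10, by 0.29 and Cox5a by 0.22, and Atp5g3, which encodes the same protein ring as Atp5g1, fell by 0.20. Without irradiated replicates 1 and 2 the counts were 23 rises and 7 falls among 85. The summed level of 9 erythroid markers moved with IR in these samples, from 50.2 to 127.7 RPKM to between 20 and 35.6, with no marker at 0 throughout a group, and 6 of the 9 fell. Of 8 proliferation markers 5 fell and 1 rose, and their sum went from 66.0 to 150.0 RPKM to between 61.9 and 78.0. Of 8 T cell markers 3 fell, with sums of 64.6 to 73.9 RPKM in mock and 43.2 to 74.5 in irradiated samples. The part of these lists in the members' values was not tested.

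In irradiated Trp53-/- B cells, which lack p53, rises far outnumbered falls. Of 86 members 33 rose (38.4%, beside 23.0% of all genes) and 4 fell (4.65%, beside 17.2%). The median log2 fold change was 0.29, beside 0.02 over all genes, and 77 of 86 values were positive. With a log2 fold change above 0.58 as well, 13 rose and 3 fell, where 24.3% of all genes passed in either direction. Complex I gave 22 rises among 45 and 0 falls, including 5 of its 7 core subunits and 5 of its 7 assembly factors. Complex III gave 5 rises among 8 and complex V 5 among 17. In complex IV, 1 of 16 rose and 3 fell.

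With 2 samples on each side, single libraries carried weight: 16 calls were made without mock replicate 1, 24 without mock replicate 2 and 15 without irradiated replicate 1, of 37 in all. The largest fold change belonged to Ndufa4l2, a hypoxia-inducible paralogue of Ndufa4. It was 1.02 and 0.353 RPKM in the mock samples and 3.89 and 5.13 in the irradiated samples (log2 fold change 2.13, SE 0.35, adjusted p = 0.00044), so its level remained low. Its last 14 bases overlap Shmt2, a folate enzyme gene, on the other strand, and Shmt2 rose by 1.48 in these cells. In Trp53+/+ B cells Shmt2 rose by 1.26 while Ndufa4l2 was 0.333 to 1.11 RPKM in mock and 0.67 to 1.01 in irradiated samples.

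Ndufaf2 was 5.29 and 5.0 RPKM in mock and 18.2 and 19.4 in irradiated Trp53-/- B cells (log2 fold change 1.77, SE 0.17, adjusted p = 1e-05). Ndufaf4 was 10.7 and 9.43 RPKM in mock and 34.8 and 29.1 in irradiated samples (log2 fold change 1.62, SE 0.20, adjusted p = 5e-05). For both genes the irradiated pair stood well above every mock B sample of either genotype. Ndufa12 rose by 1.15, Ndufaf6 by 0.95, Ndufab1 by 0.81, Atp5g1 by 0.78 and Cox5a, a subunit of complex IV, by 0.66. The falls were Cox7a1 (-0.82), Atp5sl (-0.81), Cox6a2 (-0.78) and Cox7a2l (-0.38). Cox6b2 was 0.722 and 2.06 RPKM in mock and 1.13 and 1.6 in irradiated samples, with a fold change of 0.06.

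Genes that rose were partly shared between the genotypes, each tested against its own mock samples. In B cells 16 members rose in both, which were 80.0% of the 20 in Trp53+/+ and 48.5% of the 33 in Trp53-/- cells. Over all genes tested, 1884 rose in both, 53.6% of those in Trp53+/+ and 59.4% of those in Trp53-/- cells. The 16 members comprised 11 subunits and factors of complex I beside Uqcrc1, Uqcr10 and Uqcrq of complex III and Atp5d and Atp5g1 of complex V. Atp5sl and Cox6a2 fell in both, which were 2 of the 7 falls in Trp53+/+ and 2 of the 4 in Trp53-/- cells. Among all genes tested, 1698 fell in both, 47.6% of those in Trp53+/+ and 71.5% of those in Trp53-/- cells. The members' falls were thus shared less often than those of all genes, on few members. Cox5a and Atp5g3 fell in Trp53+/+ and rose in Trp53-/- B cells, and such opposite calls were not counted over all genes.

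**Figure D2:**
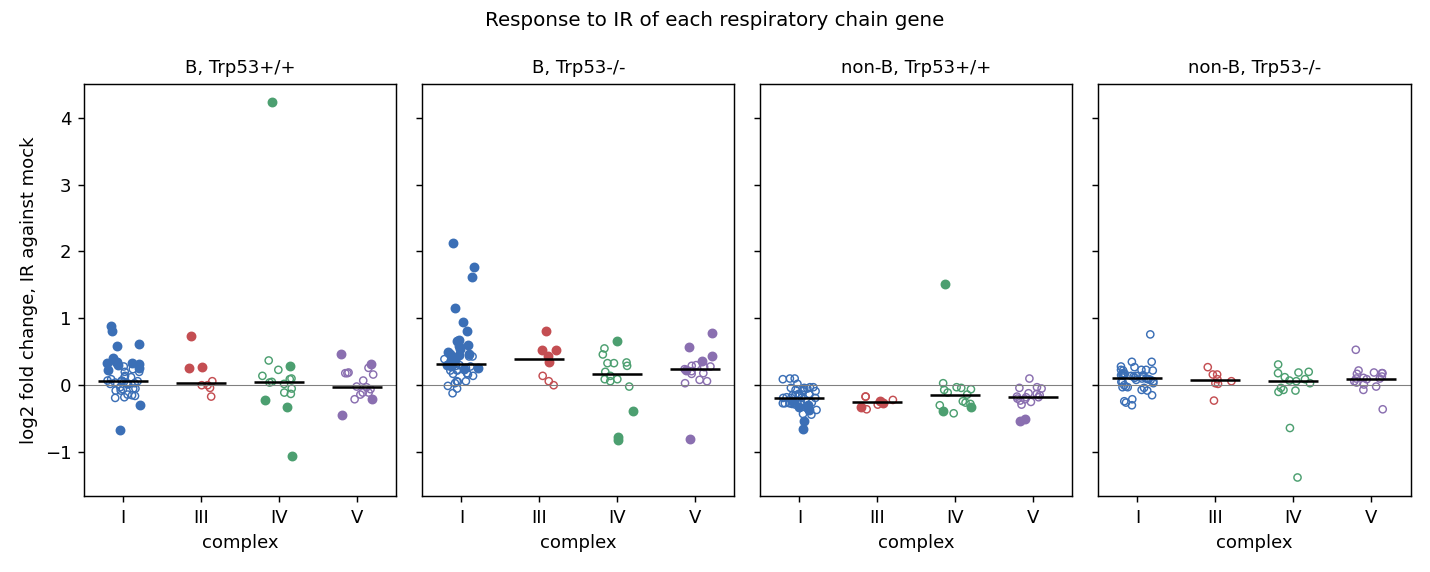
Log2 fold change of IR against mock for each tested member (y axis), by complex (x axis), in the 4 combinations of cell type and genotype. Filled points passed an adjusted p under 0.05, open points did not, and black bars are medians. The medians of Trp53-/- B cells lie above 0 in every complex, those of Trp53+/+ non-B cells below 0.

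The difference of the response between the genotypes was then tested directly. In B cells 1 member had a larger change in Trp53+/+ (1.16%, beside 8.14% of all genes) and 9 had a lower one (10.5%, beside 10.6% of all genes). The share is close to the background, although only 12 of 86 differences were positive and the median was -0.23, beside -0.06 over all genes. With median-ratio scaling 2 were higher and 7 lower, and with quantile normalization 3 and 10. Cox6b2 was the member above 0, with a difference of 4.17 (SE 0.43, adjusted p = 4.1e-05). The widest of the negative differences were Ndufa4l2 (-1.99, SE 0.43, adjusted p = 0.0075, and 0.052 without Trp53-/- mock replicate 2) and Ndufaf4 (-1.20, SE 0.24, adjusted p = 0.0052). Ndufaf4 in Trp53+/+ B cells was 13.1, 11.7, 11.6 and 8.4 RPKM in mock and 13.2, 12.8, 17.8 and 16.4 in irradiated samples, a fold change of 0.41 (adjusted p = 0.025).

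Cox5a, which shares 267 exon bases with Gm17596 on the other strand, differed by -0.88 (SE 0.14, adjusted p = 0.0013). It was 33.1 to 36.0 RPKM in mock and 25.3 to 31.7 in irradiated Trp53+/+ B cells, without overlap, and 25.2 and 30.5 in mock and 46.2 and 41.9 in irradiated Trp53-/- B cells. The genotypes therefore moved in opposite directions. Its fall in Trp53+/+ cells did not pass without mock replicate 1, 2 or 4 or irradiated replicate 2, with fold changes from -0.22 to -0.15. The count of 10 rested on single samples: it was 6 without Trp53-/- mock replicate 2 or irradiated replicate 1, and 19 without Trp53+/+ mock replicate 4.

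**Figure D3:**
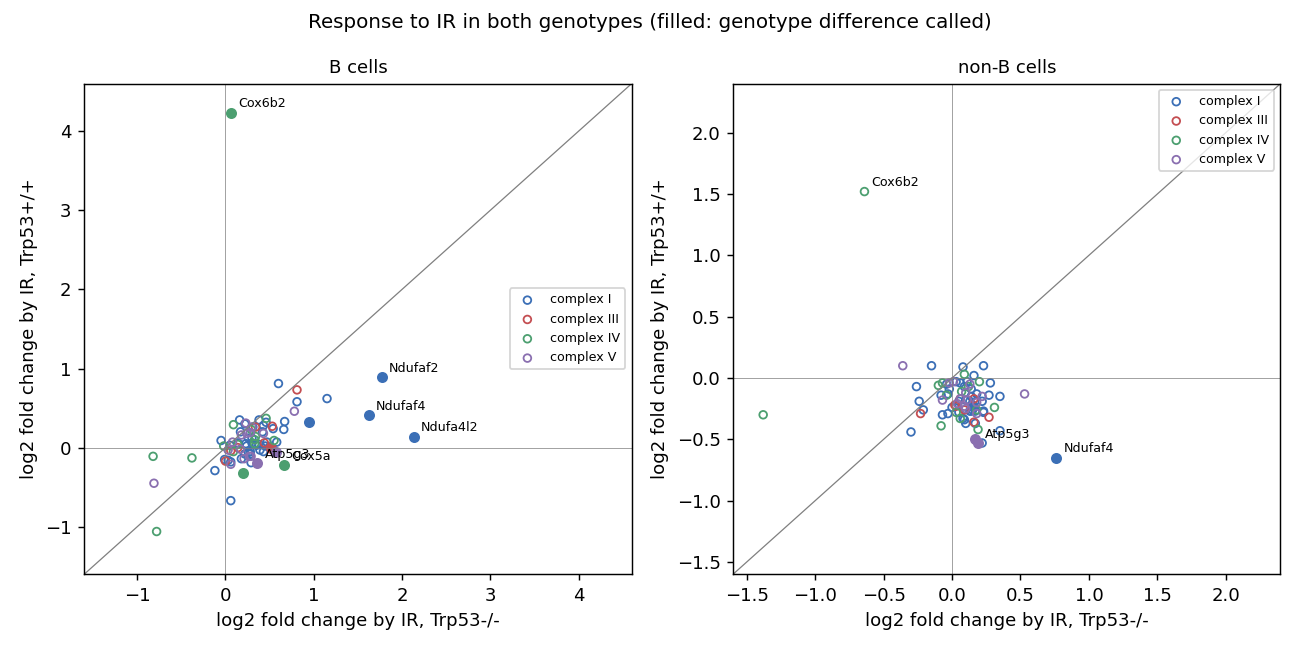
Log2 fold change by IR in Trp53-/- (x axis) and Trp53+/+ cells (y axis) of each tested member, for B cells (left) and non-B cells (right), coloured by complex, with the line of equal response. Filled points are those whose difference between genotypes passed an adjusted p under 0.05, 10 in B and 4 in non-B cells, and most points lie below the line.

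In irradiated Trp53+/+ non-B cells falls outnumbered rises, and their steps were small. Of 84 members 14 fell (16.7%, beside 9.94% of all genes) and 1 rose (1.19%, beside 8.72%). The median log2 fold change was -0.19, beside -0.03 over all genes, and 7 of 84 values were positive. A log2 fold change above 0.58 as well was reached by 1 member that fell and 1 that rose, where 9.85% of all genes passed. The falls were spread over all complexes, with 7 of 44 in complex I, 3 of 8 in complex III, 2 of 15 in complex IV and 2 of 17 in complex V.

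The falls were not called with the receptor genes as a covariate. The receptor mean was 0.0652 to 0.0828 RPKM in mock and 0.0846 to 0.1681 in irradiated Trp53+/+ non-B samples, without overlap. The covariate thus moved with IR in these cells, and its part and that of IR cannot be told apart. With the receptor mean as a covariate 0 members fell and 0 rose by limma, with 8 at an unadjusted p under 0.05. The median of the members was then -0.0, beside -0.05 over all genes. Shares of all genes called are not given for this setting, so these member counts have no background beside them. Without irradiated replicates 1, 3 and 4 both counts were again 0, with 9 at an unadjusted p under 0.05 and a median of -0.06, but then 1 irradiated library was left and was assumed to vary like the other groups. Median-ratio scaling left 5 falls, and the Trp53+/+ samples alone gave 4. Without mock replicate 1 or 2 there were 3 falls, without irradiated replicate 3 there were 4, without irradiated replicate 1 there were 5 and without mock replicate 4 there were 6. Without either irradiated Trp53-/- sample, which enter through the shared spread, there were 8. Erythroid markers also moved: their summed level was 141.7 to 415.6 RPKM in mock and 29.9 to 122.9 in irradiated samples, 5 of 9 fell, and none was at 0 throughout a group. Proliferation markers, 8 genes of which 2 fell, went from 103.4 to 366.5 RPKM to between 68.3 and 140.1. Of 8 T cell markers 4 fell, and their sum was 389.9 to 561.6 RPKM in mock and 305.5 to 406.3 in irradiated samples. Of 8 B cell markers 2 fell, with sums of 327.4 to 528.7 and 227.3 to 452.6 RPKM. The part of these lists in the members' falls was not tested.

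Ndufaf4 was 11, 10.3, 9.6 and 9.9 RPKM in mock and 4.13, 7.63, 5.98 and 8.33 in irradiated Trp53+/+ non-B cells (log2 fold change -0.65, SE 0.18, adjusted p = 0.029), without overlap. Ndufaf6, of the same assembly pathway, was 3.97 to 5.26 RPKM and then 2.45 to 3.78 (log2 fold change -0.53, SE 0.16). The ring subunit genes of complex V gave the tightest falls. Atp5g1 was 38.4 to 48.8 RPKM in mock and 27.4 to 31.9 in irradiated samples (log2 fold change -0.50, SE 0.09, adjusted p = 0.0048), and Atp5g3 went from 45.3 to 55.0 RPKM to between 28.7 and 36.5 (log2 fold change -0.53, SE 0.09, adjusted p = 0.0033). The third ring gene, Atp5g2, had a fold change of -0.18 and did not pass. Cox6a1, the general isoform beside Cox6a2, had a fold change of -0.39, which turned to 0.03 with the receptor covariate. Ndufv1, the flavoprotein that accepts electrons from NADH, fell by 0.37 (adjusted p = 0.045). With any 1 library left out the ring genes Atp5g1 and Atp5g3 kept their calls, but with the receptor covariate their fold changes were -0.28 (adjusted p = 0.31) and -0.43 (adjusted p = 0.18). Ndufaf4 lost its call without mock replicate 1, 2 or 4 or irradiated replicate 3. Cox6a1 lost it without any mock replicate or irradiated replicate 3 or 4, Ndufaf6 without mock replicate 1, 2 or 4 or irradiated replicate 1, 2 or 3, and Ndufv1 in 10 of 12 such fits.

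Cox6b2 was again the member that rose. Its mock values were 21.2, 19.1, 7.17 and 5.86 RPKM and its irradiated values 32.3, 30.3, 36.1 and 37.7, without overlap (log2 fold change 1.52, SE 0.41, adjusted p = 0.026). The call was lost without mock replicate 3 or 4 or irradiated replicate 1 or 3, while the fold change stayed between 1.22 and 1.81. Without irradiated replicates 1, 3 and 4 it was 1.36 (adjusted p = 0.35).

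**Figure D4:**
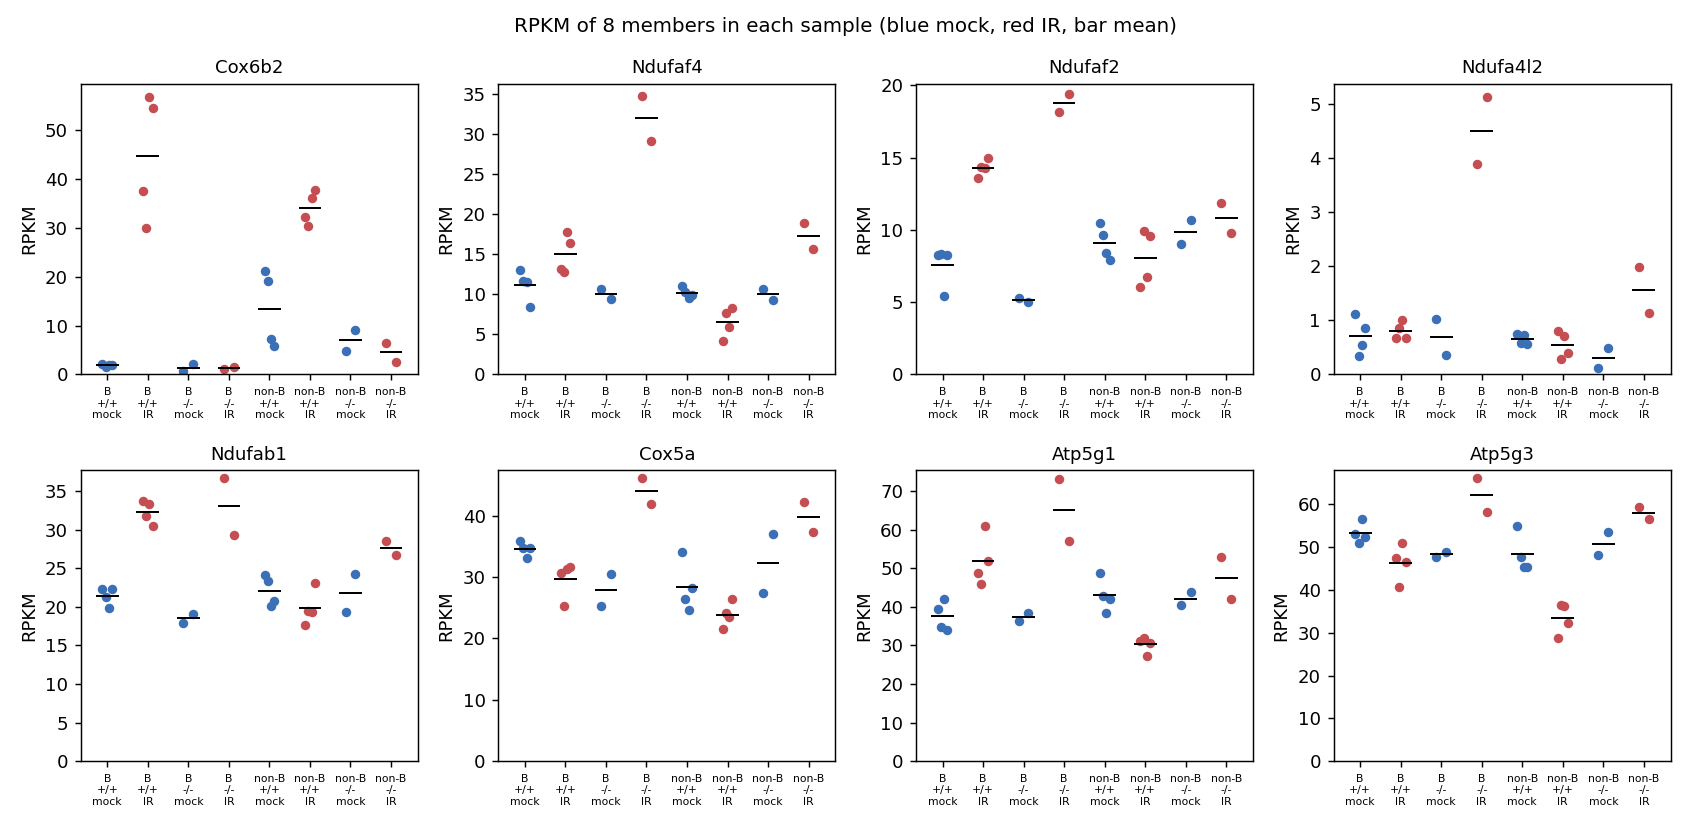
RPKM of 8 members (y axes, from 0) in each sample, by cell type, Trp53 genotype and treatment (x axis), with mock samples in blue, irradiated samples in red and bars at the group means. Cox6b2 rises in Trp53+/+ cells, to 30.0 to 56.7 RPKM in B cells, and Ndufaf4 and Ndufa4l2 reach their highest values in irradiated Trp53-/- B cells.

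Trp53-/- non-B cells gave 0 calls among 84 members by limma, with 6 at an unadjusted p under 0.05. Of all genes 0.471% were called there, and 2222 of 14018 had an unadjusted p under 0.05. The median log2 fold change of the members was 0.10, beside -0.02 over all genes. Ndufaf4 was 10.7 and 9.26 RPKM in mock and 18.9 and 15.7 in irradiated samples (log2 fold change 0.76, adjusted p = 0.17). Cox6b2 was 4.7 and 9.19 in mock and 6.51 and 2.47 in irradiated samples. As a direct test, 0 members had a larger response in Trp53+/+ than in Trp53-/- non-B cells (3.98% of all genes did) and 4 had a lower one (4.76%, beside 3.37%). These were Ndufaf4 (-1.41, SE 0.31, adjusted p = 0.022), Atp5g3 (-0.72, SE 0.16, adjusted p = 0.023), Atp5g1 (-0.67, SE 0.16, adjusted p = 0.032) and Ndufs3, a core subunit of complex I (-0.37, SE 0.10, adjusted p = 0.043). Beyond the count, Atp5g1 was also lost without Trp53+/+ mock replicate 2. The difference of Cox6b2 was 2.16 (SE 0.71, adjusted p = 0.085) and did not pass. With the receptor covariate, without irradiated Trp53+/+ replicates 1, 3 and 4, or without either Trp53-/- mock sample or irradiated Trp53-/- replicate 1, 0 of the 4 calls were left, and 2 were left without irradiated Trp53-/- replicate 2 or Trp53+/+ replicate 3.

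The responses of Trp53+/+ B and non-B cells were compared in 1 fit over 16 samples. The change was more positive in B cells for 24 members (27.9%, beside 15.4% of all genes) and more negative for 1 (1.16%, beside 12.6%). The median difference was 0.26, beside 0.05 over all genes. Complex I gave 14 of its 45 members, complex III 3 of 8, complex V 6 of 17 and complex IV 1 of 16. Cox6b2 differed by 2.71 (SE 0.45, adjusted p = 0.00042), Ndufaf2 by 1.08 (SE 0.23, adjusted p = 0.0024) and Ndufaf4 by 1.06 (SE 0.25, adjusted p = 0.0052). Ndufaf2 in Trp53+/+ non-B cells was 7.89 to 10.5 RPKM in mock and 6.04 to 9.94 in irradiated samples. Atp5sl, whose fall was seen in B cells, differed by -0.54. Without the 5 libraries with the most receptor genes 8 members were called, all more positive in B cells, and the difference of Ndufaf2 was 0.80 (adjusted p = 0.073).

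Levels were also summed over the genes of each complex, on a linear scale and with no test. Complex I summed to 1310.9 ± 113.7 RPKM (SD, n = 4) in mock and 1416.1 ± 80.5 in irradiated Trp53+/+ B cells, an overlap of ranges, and to 1241.9 and 1330.4 in mock and 1609.4 and 1741.4 in irradiated Trp53-/- B cells, without overlap. In Trp53+/+ non-B cells it was 1207.4 ± 83.0 in mock and 1059.3 ± 84.2 in irradiated samples. Complex III in these cells went from 317.3 ± 25.4 to 267.9 ± 21.7, and complex V from 755.4 ± 35.2 to 665.2 ± 44.4, with no overlap of the ranges for either. The gap was narrow: irradiated replicate 2, the library of that group with few receptor genes, had the highest irradiated sum in both, at 295.7 RPKM against a lowest mock sum of 300.6 in complex III and at 719.6 against 724.7 in complex V. Complex IV was 559.4 ± 30.5 and 531.2 ± 35.0 there, and 600.0 and 648.1 as means of both samples in mock and irradiated Trp53-/- B cells.

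**Figure D5:**
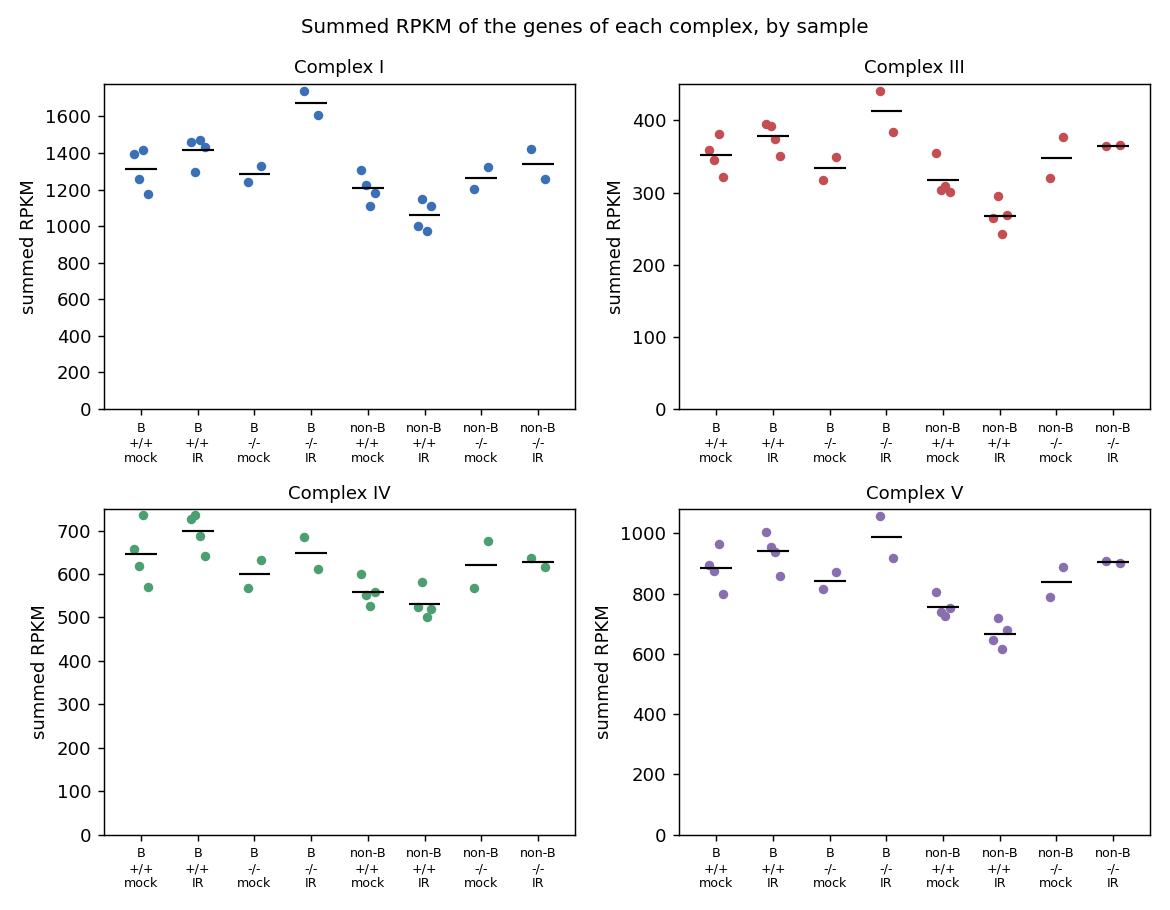
Summed RPKM of the genes of complexes I, III, IV and V (y axes, from 0) in each of 24 samples, by cell type, Trp53 genotype and treatment (x axis), with bars at the group means. In complex I both irradiated Trp53-/- B samples, at 1609.4 and 1741.4, lie above all other samples.

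Other parts of the pathway were counted from lists, to be read beside the shares of all genes that rose and fell, 25.4 and 25.8% in Trp53+/+ B cells, 23.0 and 17.2% in Trp53-/- B cells and 8.72 and 9.94% in Trp53+/+ non-B cells. Complex II, the link of the chain to the citric acid cycle, had 0 of 4 genes called in irradiated Trp53-/- B cells. Sdha fell by 0.27 in Trp53+/+ B cells, from 52.4 to 59.5 RPKM to between 46.1 and 47.0, while Sdhb, Sdhc and Sdhd were not called. Of the electron carriers, Cycs (cytochrome c) rose by 0.38 in Trp53+/+ and 0.68 in Trp53-/- B cells, and Cyc1 (cytochrome c1 of complex III) rose by 0.59 in Trp53-/- B cells and fell by 0.31 in Trp53+/+ non-B cells. The testis form Cyct was not tested. Of 11 complex IV assembly factors, 7 rose (63.6%) and 0 fell in Trp53-/- B cells, led by the heme synthesis enzyme Cox10 (1.00), the RNA-binding Lrpprc (0.87) and the copper chaperone Sco1 (0.75). In Trp53+/+ B cells 5 rose (45.5%) and 1 fell. All 4 complex III assembly factors rose in Trp53+/+ B cells, Lyrm7 by 1.39, and 2 of 4 in Trp53-/- B cells. Of 6 further complex I assembly factors 3 rose in each genotype, Timmdc1 by 0.57 and 0.85, and Tmem126b fell by 0.80 in Trp53+/+ B cells. Of 3 genes for complex V assembly and inhibition, 1 rose in Trp53+/+ and 2 in Trp53-/- B cells. In Trp53+/+ non-B cells 2 of the 11 complex IV factors fell, Lrpprc by 0.42 and Surf1 by 0.29. With the receptor covariate the fold changes in these cells were -0.36 for Lrpprc, -0.05 for Surf1 and -0.14 for Cyc1, and without irradiated replicates 1, 3 and 4 they were -0.37, -0.09 and -0.18, with none of these calls left under either setting. In Trp53+/+ B cells the call of Cyc1 was added under both, as a rise of 0.36 and 0.34.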

How the data were processed

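Total RNA of spleen fractions was depleted of ribosomal RNA and sequenced from libraries that do not mark strand. The authors deposited RPKM per gene and sample (scaled to exon length and to exon-mapped reads). Per the submitters' processing notes and the study's methods, reads were masked below quality 20, aligned to mm9 with TopHat2 2.0.8, reduced to 1 read of each set of duplicates and counted with featureCounts 1.4.5 on UCSC genes. Raw counts were not used here. Depth was estimated from the steps between low RPKM values.

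Log2(RPKM + 0.5) was fitted with limma 3.58.1 (R 4.3.3), with empirical Bayes moderation, over the 12 samples of each cell type (means of 4 groups), and over the 16 Trp53+/+ samples for the cell type comparisons. Genes had RPKM above 1 in at least 1 Trp53+/+ sample of the fit, and p-values were adjusted over all of them. The test was checked on simulated data. Members and lists were chosen with earlier results of these data known. Named were the 6 called members with the largest change in each direction for both Trp53+/+ IR comparisons and for B against non-B cells, the 3 largest for the other comparisons, the highest and lowest member of each complex, a fixed list of subunits and isoforms, untested members, and up to 3 called genes of each other list. Other genes named, such as Atp5d, Ndufs3 or a neighbouring gene, were chosen after their values were seen. Same-numbered mock and irradiated Trp53+/+ non-B samples deviated together (r = 0.155 to 0.33), while those of B cells gave 0.01 to 0.0906. The labels do not say what a number marks, and the fit with the number as a block was an alternative, beside other pseudocounts, filters, scalings, thresholds and samples, a receptor gene covariate and a correction for the ceiling. Promoters came from RefSeq (GRCm38.p6), with 70 members found by symbol and the rest of 73 by synonym. Gene positions are on NCBIM37.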

Additional observations from a re-analysis of the deposited data

Results flagged for a closer look

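Single samples stood far from the other 3 of their group in 3 of 92 checks over 23 named members (4 groups each), where chance gives about 1 in 20. Cox5a was at 25.3 RPKM in 1 irradiated Trp53+/+ B sample against 30.6 to 31.7 in the others. Cox7a2 was at 30.6 RPKM in 1 sample of the same group against 28.5 to 28.7. Ndufaf2 was at 5.39 RPKM in 1 mock Trp53+/+ B sample against 8.27 to 8.32.

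The response to IR differed between Trp53+/+ and Trp53-/- B cells for 10 members by limma at an adjusted p under 0.05. The log2 difference was 4.17 for Cox6b2, -1.99 for Ndufa4l2, -1.20 for Ndufaf4, -0.88 for Cox5a and for Ndufaf2, -0.62 for Atp5j and for Ndufaf6, -0.56 for Atp5g3, and -0.52 for Uqcr11 and for Cox7a2. In non-B cells it differed for 4 members, by -1.41 for Ndufaf4, -0.72 for Atp5g3, -0.67 for Atp5g1 and -0.37 for Ndufs3.

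Between Trp53+/+ B and non-B cells the response differed for 25 members. The difference was 2.71 for Cox6b2 and, among assembly factors of complex I, 1.08 for Ndufaf2, 1.06 for Ndufaf4 and 0.86 for Ndufaf6. Other complex I members differed by 0.76 for Ndufa12, 0.73 for Ndufab1, 0.72 for Ndufb6, 0.66 for Ndufa5, 0.50 for Ndufs6 and Ndufc2, 0.47 for Ndufa10, 0.46 for Ndufb7, 0.40 for Ndufb3, 0.30 for Ndufs3 and 0.26 for Ndufa13. In complex III the values were 1.01 for Uqcrq, 0.60 for Uqcr10 and 0.49 for Uqcrc1. In complex V they were 0.96 for Atp5g1, 0.41 for Atp5b, 0.39 for Atp5k, 0.35 for Atp5d, 0.34 for Atp5a1 and 0.33 for Atp5o, and Atp5sl stood at -0.54.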

How the results depend on the processing

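Over 39 results for named members, 835 of 931 alternative values kept their direction and their side of the threshold, 95 kept the direction but lost the call, and 1 turned, Cox6a1 in irradiated Trp53+/+ non-B cells with the receptor covariate (0.03). A log2 fold change above 0.58 left 5 rises and 2 falls in Trp53+/+ B cells, 16 calls in Trp53-/- B cells, 1 fall in Trp53+/+ non-B cells, 3 members higher in B cells and 11 differences between the cell types. Without a filter on low values there were 0 rises and 7 falls in Trp53+/+ non-B cells and 1 member higher in non-B cells. Median-ratio scaling gave 5 falls and Trp53+/+ samples alone 4 falls in Trp53+/+ non-B cells. The receptor covariate, which moved with IR in Trp53+/+ non-B cells, gave 0 rises, 0 falls and 0 genotype differences in non-B cells. So did leaving out the irradiated Trp53+/+ libraries with most receptor genes, which also left 8 differences between the cell types. Correction for the ceiling, chosen after seeing the data, gave 17 genotype differences in B cells. The cause of these shifts was not tested.

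With each sample left out in turn, Trp53+/+ B cells gave 15 to 22 rises and 5 to 8 falls, Trp53-/- B cells 15 to 40 calls, and B cells 6 to 19 genotype differences of the response and 0 to 1 at baseline (1 without mock Trp53+/+ replicate 3). Trp53+/+ non-B cells gave 0 to 1 rises and 3 to 13 falls, Trp53-/- non-B cells 0 to 0 calls, and non-B cells 0 to 5 genotype differences of the response and 0 to 0 at baseline. B against non-B cells gave 13 to 27 members higher in B and 1 to 2 higher in non-B cells, and the responses of the cell types differed for 19 to 30.

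With the replicate block, Trp53+/+ non-B cells had 1 rise and 13 falls, Trp53+/+ B cells 22 and 6, Trp53-/- B cells 36 and 3, and the genotype difference held 1 and 9 in B cells and 3 lower in non-B cells. The block gave 19 and 2 for B against non-B cells and 20 and 1 for their responses. Among named members it ended only the call of Cox5a in Trp53+/+ B cells (adjusted p = 0.061 by limma). With the Trp53-/- numbers crossed in the block, added because same-numbered non-B samples gave r = -0.264, 1 member was called in irradiated Trp53-/- non-B cells. Limits are the depth of 4.7 to 11.01 M reads, 2 samples in each Trp53-/- group and RPKM in place of counts.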

Other observations

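Genes of the mitochondrial ribosome, which makes the subunits encoded in mitochondrial DNA, were counted in the same fits. Of 76 mitochondrial ribosomal protein genes, 59 rose (77.6%, beside 23.0% of all genes) and 0 fell in irradiated Trp53-/- B cells (median log2 fold change 0.59), and 38 rose (50%, beside 25.4%) and 0 fell in Trp53+/+ B cells (0.22). In Trp53+/+ non-B cells 0 rose and 18 fell (23.7%, beside 9.94%; median -0.22). The response was lower in Trp53+/+ than in Trp53-/- cells for 18 of them among B cells (23.7%, beside 10.6% of all genes). Among non-B cells it was lower for 10 (13.2%, beside 3.37%). The genes were counted again with the receptor covariate, a choice made after seeing the data, without shares of all genes beside the counts. Under it 50 rose in Trp53+/+ B cells and 0 fell in Trp53+/+ non-B cells (3 at an unadjusted p under 0.05 by limma). The response was lower for 17 among B cells and 0 among non-B cells. Without the irradiated Trp53+/+ libraries with most receptor genes these counts were 48, 0 (10 at an unadjusted p under 0.05), 12 and 0. Of 87 cytosolic ribosomal protein genes, 44 rose in Trp53+/+ B cells (50.6%, beside 25.4%; median 0.31) and 13 in Trp53-/- B cells (14.9%, beside 23.0%; median 0.18). The 44 became 21 with the receptor covariate and 22 of 86 without those libraries.

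Of 13 genes of the tricarboxylic acid cycle, 6 rose in Trp53-/- B cells (46.2%, beside 23.0%) and 5 fell in Trp53+/+ non-B cells (38.5%, beside 9.94%), of which 0 were called with the receptor covariate or without the libraries (1 and 2 of the 13 at an unadjusted p under 0.05). Glycolysis genes moved both ways: of 16, 8 rose (50%, beside 23.0%) and 2 fell in Trp53-/- B cells, where the hexokinase Hk2 rose by 1.76 and Hk1 fell by 0.84. In Trp53+/+ B cells 5 rose (31.2%, beside 25.4%) and 3 fell (18.8%, beside 25.8%), led by the lactate dehydrogenase Ldhb (1.62) and Aldoc (-1.46), and Ldhb rose by 1.61 in Trp53+/+ non-B cells too, a call lost with the receptor covariate (0.92) and without the libraries (1.09). Of 16 regulators of mitochondrial biogenesis, 9 rose (56.2%, beside 23.0%) and 1 fell in Trp53-/- B cells, with Peo1, the mitochondrial DNA helicase, at 1.32 and the coactivator Ppargc1a at -1.11. In Trp53+/+ B cells 8 rose (50%, beside 25.4%) and 2 fell, with the GABP subunit gene Gabpb1 at 1.15 and Ppargc1a at -0.80. Of 3 mitochondrial genes linked to p53, the glutaminase gene Gls2 rose in B cells of both genotypes, by 0.91 in Trp53+/+ and 1.15 in Trp53-/- cells, and the ferredoxin reductase gene Fdxr rose by 0.72 in Trp53+/+ B cells.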
